A study of Rattus norvegicus with 10 samples.

Results

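The Kruppel-like factors (Klf) are DNA-binding transcription factors, and their transcripts were followed here in rat lens explants that were driven toward fiber cell differentiation by FGF2. The 10 genes described are Klf2, Klf3, Klf4, Klf5, Klf6, Klf7, Klf9, Klf10, Klf13, and Klf15. They were taken by name, with earlier results of these data known. A probe set is a group of oligonucleotides on the array that is read out as 1 value. Each probe set to which the array annotation gave a member's symbol alone was used. This gave 28 probe sets of the 31042 tested, or 10 of the 14217 genes that have a probe set of their own. Klf1, Klf11, Klf12, and Klf16 were also measured but were not members, and "Klf probe sets" below means these 28.

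All explants came from 3-day-old newborn rats, with 6 explants in each assay, and the strain was not given in the sources used here. Every explant first spent a night in 5 ng/mL FGF2. The 0 hr group was collected then, and the other groups after a further 2, 4, 12, or 24 hr in 100 ng/mL FGF2. Each of the 5 time points had 2 arrays from separate biological experiments, 10 arrays in all, and no explants were kept at 5 ng/mL for the same hours. A change from 0 hr is therefore a change with both the higher dose and the hours in culture, and these cannot be told apart. Array names in the study's supplement appear to place the 0 hr arrays, the 2 and 4 hr arrays, and the 12 and 24 hr arrays in separate runs, although the labels name no run, and a difference between such runs could not be told apart from time either. Values are log2 of the normalized array intensity, on which 1 unit is a doubling. The median intensity per array ran from 98 to 100.3.

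All Kruppel-like factors carry zinc fingers at the carboxyl end of the protein, with which they bind GC-rich and CACCC sequences, and they differ mainly in the part of the protein that activates or represses. Several members are known as immediate early or early growth factor response genes, and others as hormone-responsive genes, so a family whose members share a DNA-binding domain can be read for the order in which its members come and go. In surface and lens epithelia, Klf4 and Klf5 are known for roles in growth and in keeping the epithelial state. Signaling by FGF receptors through MAP kinase and serum response factor is a textbook route to early gene activation.

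RefSeq promoter windows of 300 bases (250 before to 50 after a transcript start, build GRCr8) were at hand for 7 of the 10 members, and those for Klf2, Klf10, and Klf13 were not used here. For Klf5, Klf6, and Klf9 the start used was the outer edge of the annotated gene. These promoters are shown in full for that reason. All 3 genes were up-regulated at 2 hr and then parted. At the brightest probe set, Klf6 was called above and Klf5 below its 0 hr level at the late times, and Klf9 was neither. These calls depend on the fit. With the Actb covariate described later, Klf9 lost its 2 hr call (0.14) and was called down at 12 and 24 hr (−0.45 and −0.97). Klf6 lost its 24 hr call (0.31), and some late calls were lost when 1 array was left out, as given later. The 250 bases before the start are given 5′ to 3′ on the gene's strand, with capitals marking a match to any of the motifs searched. Klf5 lies at chr15:82472081-82487267 on the plus strand, Klf6 at chr17:69449483-69458478 on the minus strand, and Klf9 at chr1:230126646-230151641 on the plus strand.
Klf5, chr15:82471831-82472080: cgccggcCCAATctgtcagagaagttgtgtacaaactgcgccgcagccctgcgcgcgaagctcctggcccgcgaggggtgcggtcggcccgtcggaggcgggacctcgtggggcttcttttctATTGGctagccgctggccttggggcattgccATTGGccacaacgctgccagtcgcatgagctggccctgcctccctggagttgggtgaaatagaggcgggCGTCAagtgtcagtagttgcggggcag
Klf6, chr17:69458479-69458728: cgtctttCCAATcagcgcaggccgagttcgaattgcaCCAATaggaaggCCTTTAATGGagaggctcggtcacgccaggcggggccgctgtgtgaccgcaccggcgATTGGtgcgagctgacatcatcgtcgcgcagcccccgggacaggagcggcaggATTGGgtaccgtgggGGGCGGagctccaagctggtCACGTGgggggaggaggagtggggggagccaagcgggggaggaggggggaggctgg
Klf9, chr1:230126396-230126645: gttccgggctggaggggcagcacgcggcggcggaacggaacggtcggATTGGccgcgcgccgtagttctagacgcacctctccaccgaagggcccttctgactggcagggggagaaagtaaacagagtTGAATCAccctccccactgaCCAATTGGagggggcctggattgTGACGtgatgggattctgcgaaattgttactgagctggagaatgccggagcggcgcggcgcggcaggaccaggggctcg

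The motifs searched, on both strands, were the CACCC element written as CCACCC, the GC box as GGGCGG, the cAMP response element as TGACGTCA and its shorter form as TGACG (every full element holds the shorter form), the E box as CACGTG, the AP-1 element as TGANTCA, the CCAAT box, the TATA element as TATAAA, the CArG box of serum response factor, and a glucocorticoid receptor pair of GNACA followed after 3 bases by TGTNC. Among 33469 promoter windows of the same length, 29.4% held CCACCC, 33.1% GGGCGG, 1.83% TGACGTCA, 21.2% TGACG, 6.42% CACGTG, 7.33% TGANTCA, 37.5% CCAAT, 14.2% TATAAA, 1.64% a CArG box, and 0.439% the glucocorticoid pair. The Klf6 promoter held 4 CCAAT matches, 1 CArG box that began 201 bases before the start, 1 GGGCGG, and 1 CACGTG 56 bases before the start. The Klf5 promoter held 3 CCAAT matches and 1 TGACG, and the Klf9 promoter 3 CCAAT matches, 1 TGANTCA, and 1 TGACG. The windows of Klf3 and Klf7 held CCACCC and GGGCGG, that of Klf3 also CCAAT, and that of Klf4 TATAAA. The starts of Klf3, Klf4, and Klf7 lay 8592, 590, and 111 bases inside the annotated gene. No member window held the glucocorticoid pair or TGACGTCA, and these matches are descriptions of letters that were not tested for binding.

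For Klf15 the table's start lay 363 bases inside the annotated gene (chr4:124522652-124535613, plus strand), so only 30 bases around its CACGTG match are shown. The match overlapped a TGACG on the opposite strand, and the capitals cover both.
Klf15, chr4:124522902-124522931: cgcccgcggCGTCACGTGagcggtcggaga

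The level of each array at the brightest probe set of every gene showed an early wave in 7 of the 10, and a fall in Klf15. Differences were fitted with limma, 1 mean per time point over all 10 arrays, and "up-regulated", "down-regulated" and "called" stand for a p below 0.05 after Benjamini-Hochberg adjustment across the 31042 probe sets. At 2 hr 18 of the 28 Klf probe sets were up-regulated, against 8.61% of all probe sets, and 1 was down-regulated, against 8.88%. At 4 hr 14 were up-regulated and 1 down-regulated, where 11.9% of all probe sets were called in each direction. With the Actb covariate described later, the counts were 8 up and 1 down at 2 hr and 9 and 1 at 4 hr. The 2 hr calls of Klf3, Klf7, and Klf9 were lost there. The members were chosen with earlier results known, so these and later shares are descriptions and not a test of the family. The 28 had a median log2 fold change of 0.81 (2 hr) and 0.84 (4 hr), and all probe sets had one of −0.003 and −0.02. Only 1 member, Klf15, had a probe set that was down-regulated at these early times. Klf11, which was not among the 10, was also down-regulated at both and is described later.

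**Figure D1:**
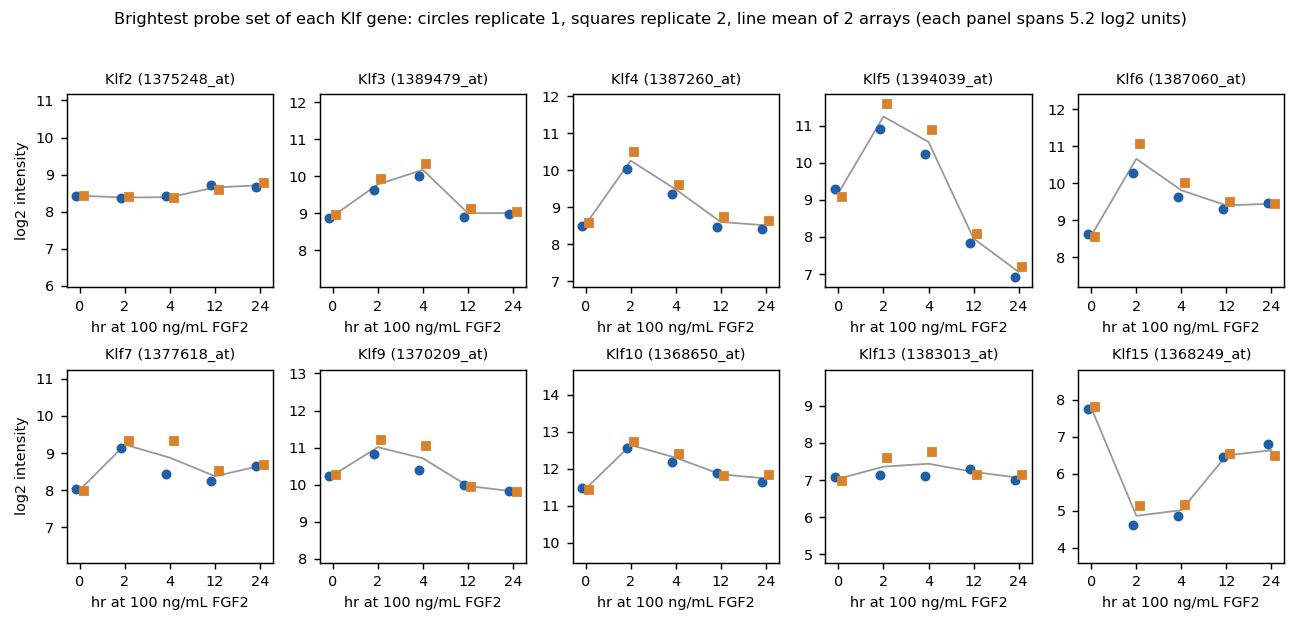
Log2 intensity (vertical axis) on each array against hr at 100 ng/mL FGF2 (horizontal axis, equally spaced; 0 hr is 5 ng/mL) for the brightest probe set of each of the 10 genes. Circles and squares are the 2 arrays of a time point and the line joins their means. Klf3, Klf4, Klf5, Klf6, Klf7, Klf9 and Klf10 are up-regulated at 2 hr, Klf5 then drops below its 0 hr level, and Klf15 falls from 7.75 and 7.80 to 4.61 and 5.12 at 2 hr.

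By 12 hr most of this had gone. At 12 hr 5 Klf probe sets were up-regulated (of Klf2, Klf6, Klf7, and Klf10) and 3 down-regulated (of Klf5 and Klf15), against 8.94% and 10% of all probe sets. At 24 hr 5 were up-regulated (of Klf2, Klf6, and Klf7) and 4 down-regulated (of Klf5 and Klf15), against 9.29% and 10.9%. This split changed to 1 up and 6 down with the Actb covariate described later. The median over the 28 was 0.12 at both late times, and that of all probe sets 0.02 and 0.03. The mean of the late times (12 and 24 hr) was lower than the mean of the early times (2 and 4 hr) for 14 Klf probe sets and higher for 4, against 19.3% and 19.9% of all probe sets, with a median of −0.41 over the 28 and 0.03 over all. Between 4 and 2 hr 1 Klf probe set was called (3.73% of all), and between 24 and 12 hr limma called 0 (4.34% of all), with 4 at an unadjusted p under 0.05.

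Over the time course as a whole, 20 of the 28 probe sets differed by the moderated F test of limma, against 40.7% of all probe sets. The other 8 included 4 of the 7 Klf probe sets that lay among the dimmest 1 in 3 of the array. At the brightest probe set, 9 of the 10 genes differed over time and Klf13 did not pass the test.

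**Figure D2:**
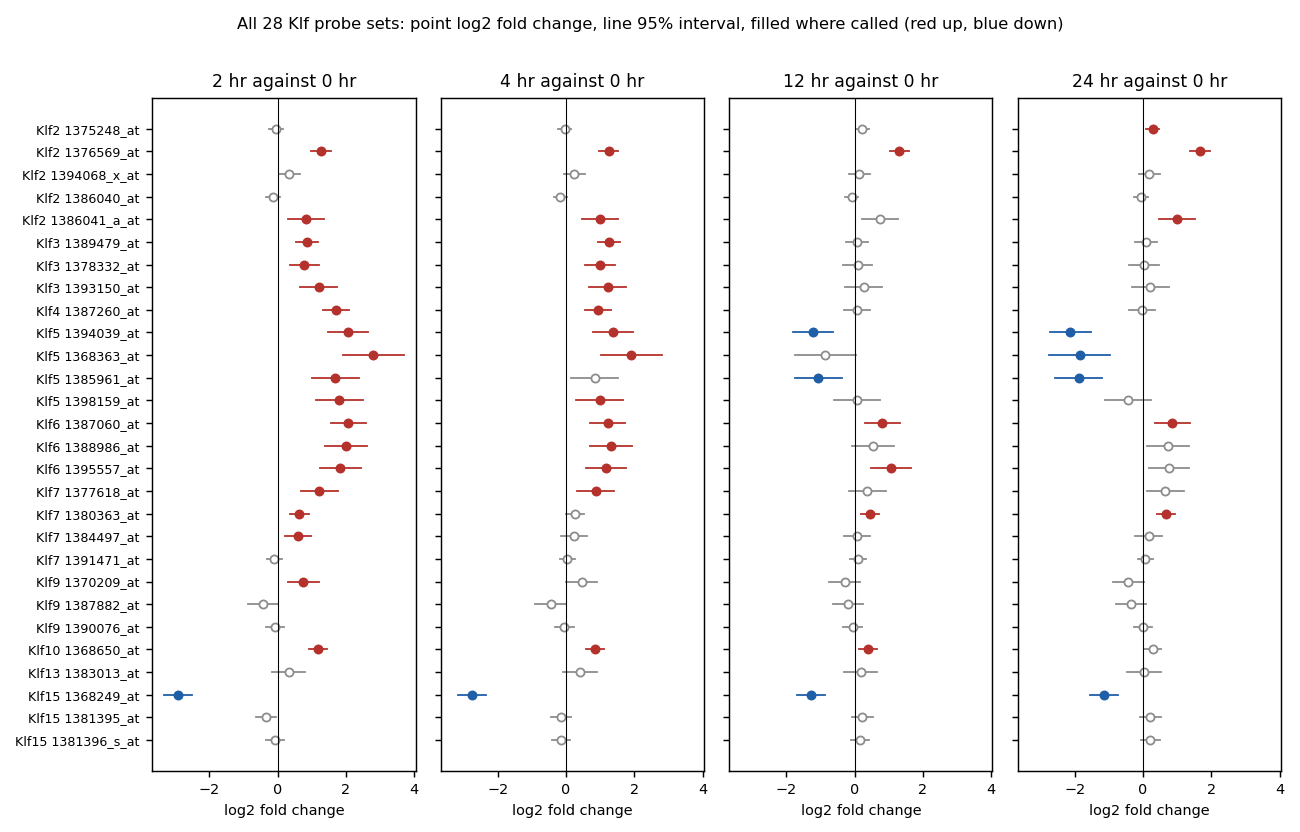
Log2 fold change against 0 hr (horizontal axis) for all 28 Klf probe sets (vertical axis) at 2, 4, 12 and 24 hr. Points are estimates, lines 95% intervals, filled points are called at an adjusted p under 0.05 (red up, blue down). The filled red points number 18 and 14 at 2 and 4 hr and 5 at each late time, and the blue points pass from Klf15 alone to Klf5 and Klf15.

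Klf5, an activator that is known to promote the growth of epithelial cells, had the widest range of any member and crossed its starting level. At the brightest probe set its 2 arrays read 9.30 and 9.08 at 0 hr, 10.92 and 11.58 at 2 hr, 10.23 and 10.89 at 4 hr, 7.82 and 8.09 at 12 hr, and 6.92 and 7.20 at 24 hr (log2 intensity). The arrays of the early times all lay above both 0 hr arrays, and those of the late times all lay below them. The log2 fold change was 2.06 ± 0.26 (SE, n = 2 arrays per time point) at 2 hr, a 4.18-fold rise, and 1.38 at 4 hr (limma adjusted p = 0.0014 and 0.0055). It was −1.23 at 12 hr and −2.13 at 24 hr, which left the level 4.37-fold lower than at 0 hr (limma adjusted p = 0.011 and 0.00082). The late mean was 10.5-fold lower than the early mean, a log2 difference of −3.40 ± 0.18.

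The other 3 Klf5 probe sets rose with it and differed among themselves late. They were up-regulated at 2 hr by log2 fold changes of 2.80, 1.69, and 1.81, and 2 of them were also called at 4 hr. At 12 hr 1385961_at was down-regulated (−1.06), while 1368363_at (−0.86) and 1398159_at (0.07) were not called. At 24 hr the 2 brighter ones were down-regulated, by −1.85 and −1.89, while the dim one (1398159_at) read −0.45 and was not called. Across the 10 arrays the 3 correlated with the brightest at Pearson's r of 0.99, 0.99, and 0.91, a description over arrays that share the same time points. The value at 4 hr that missed the threshold, 0.84 at 1385961_at, came from 2 arrays that stood far apart, at 7.33 and 8.43. At the brightest probe set the calls at 2, 4, and 24 hr were kept in every alternative fit, and that at 12 hr was lost without replicate 1 at 0 hr or replicate 1 at 12 hr. At 1385961_at the 12 hr call was lost without any 1 of the arrays of 0, 12, and 24 hr, and the 2 hr call without replicate 2 at 0 hr. At 1368363_at the 4 hr call was lost without replicate 2 at 0 hr, and the 24 hr call without either 0 hr array or replicate 1 at 24 hr. The 4 hr call of 1398159_at was kept only without replicate 1 of 4 hr among the fits that left out an array.

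Klf4, a zinc finger factor of epithelial barrier tissues that is also known as a reprogramming factor, rose and returned. Its single probe set read 8.50 and 8.57 at 0 hr, 10.03 and 10.49 at 2 hr, 9.36 and 9.61 at 4 hr, 8.47 and 8.74 at 12 hr, and 8.41 and 8.62 at 24 hr. The late arrays spanned the 0 hr arrays on both sides, and the early arrays were all above them. It was up-regulated by 1.72 ± 0.17 at 2 hr (3.30-fold, limma adjusted p = 0.00043) and by 0.95 at 4 hr. The step from 2 to 4 hr, −0.77 ± 0.17, was the single Klf difference between neighboring times that was called (limma adjusted p = 0.042). It was lost in 10 of 20 alternative fits, 8 of which left out a single array, with values from −1.001 to −0.55. The arrays whose omission ended the call were both of 0, 12, and 24 hr, replicate 2 of 2 hr, and replicate 1 of 4 hr. At 12 and 24 hr the fold changes were 0.07 and −0.02, with 95% intervals of −0.31 to 0.45 and −0.40 to 0.36.

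Klf6, a widely expressed activator known as an early growth factor response gene, also peaked at 2 hr but stayed above its starting level. Its brightest probe set read 8.63 and 8.54 at 0 hr, 10.26 and 11.05 at 2 hr, 9.62 and 9.99 at 4 hr, 9.31 and 9.49 at 12 hr, and 9.46 and 9.44 at 24 hr. Every array in 100 ng/mL FGF2 lay above both 0 hr arrays. The log2 fold changes in order of time were 2.07 ± 0.23 (4.20-fold), 1.22, 0.81, and 0.86, all called (limma adjusted p = 0.00074, 0.0052, 0.037, and 0.028). The other 2 probe sets were up-regulated at both early times, by 2.00 and 1.84 at 2 hr and 1.32 and 1.18 at 4 hr. At 12 hr 1 of them was called (1.06) and the other was not (0.53), and at 24 hr neither was (0.72 and 0.76). Its calls at 12 and 24 hr were lost when either array of 0 hr, or either array of the time point itself, was left out. The 12 hr call was also lost without either 24 hr array, and the values of all alternatives ran from 0.65 to 0.90 at 12 hr and from 0.31 (with the Actb covariate described later, where the call was also lost) to 0.90 at 24 hr. Of the other 2 probe sets, the 4 hr calls were lost without replicate 2 at 0 hr and with the Actb covariate (0.83 and 1.06), that of 1395557_at also without replicate 1 at 4 hr, and the 12 hr call of 1395557_at without either array of 0 or 12 hr.

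Klf10, known as a gene induced early by transforming growth factor beta, rose at 2 hr and then declined. Its single probe set read 11.49 and 11.43 at 0 hr, 12.56 and 12.72 at 2 hr, 12.20 and 12.40 at 4 hr, 11.89 and 11.82 at 12 hr, and 11.63 and 11.85 at 24 hr. All 8 later arrays were above the 0 hr arrays, and the replicates lay close together. The log2 fold changes in order of time were 1.18 ± 0.11, 0.84, 0.40, and 0.28, of which the first 3 were called (limma adjusted p = 0.00039, 0.001, and 0.04). The 12 hr call was lost when either 0 hr array or either 12 hr array was left out.

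Klf3, a repressor that recruits the corepressor CtBP, was up-regulated at the early times alone. The brightest of its 3 probe sets read 8.88 and 8.96 at 0 hr, 9.62 and 9.93 at 2 hr, 10.01 and 10.33 at 4 hr, 8.90 and 9.10 at 12 hr, and 8.98 and 9.03 at 24 hr. Unlike Klf4, its 4 hr arrays were both higher than its 2 hr arrays, although the step of 0.39 ± 0.14 was not called and the difference between the 2 genes was not tested. The 3 probe sets rose 1.73- to 2.30-fold at 2 hr and 2.00- to 2.38-fold at 4 hr, each called, and had log2 fold changes of 0.03 to 0.27 at the late times, none called. All 3 were lower late than early, by 0.83 to 0.97 on the log2 scale. The replicates were least alike at 4 hr, where they read 9.35 and 10.07 at 1378332_at. At that probe set the 2 hr call was lost without either array of 0 hr or of 2 hr, and at 1393150_at, which read 8.98 and 9.90 at 4 hr, it was lost without either 0 hr array and the 4 hr call without replicate 1 at 0 hr.

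Klf7, which is best known from neurons, was less uniform. Its brightest probe set read 8.04 and 7.97 at 0 hr, 9.13 and 9.32 at 2 hr, 8.43 and 9.31 at 4 hr, 8.24 and 8.51 at 12 hr, and 8.65 and 8.66 at 24 hr. It was up-regulated by 1.22 ± 0.24 at 2 hr and 0.87 at 4 hr, where the 2 arrays were far apart. The 4 hr call was lost without replicate 2 at 4 hr, and both early calls were lost without either 0 hr array. Of the other 3 probe sets, 1380363_at was up-regulated at 2, 12, and 24 hr (0.64, 0.45, and 0.68), 1384497_at at 2 hr (0.59), and the dim 1391471_at at no time. At 1380363_at the 2 hr call was lost without either 0 hr array, and the 12 hr call without either array of 0 or 12 hr. The call of 1384497_at was lost without any 1 of the arrays of 0, 2, 12, and 24 hr. At 1380363_at the late minus early difference was 0.12 ± 0.08 and not called, and at the brightest it was −0.54 and called.

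Klf9, a small repressor known as a glucocorticoid and thyroid hormone response gene, gave a brief rise. Its brightest probe set read 10.23 and 10.27 at 0 hr, 10.83 and 11.20 at 2 hr, 10.38 and 11.04 at 4 hr, 10.001 and 9.93 at 12 hr, and 9.84 and 9.80 at 24 hr. The early arrays were all above, and the late arrays all below, the 0 hr arrays. It was called at 2 hr (0.76 ± 0.20, limma adjusted p = 0.03) and at no other time against 0 hr, where the values were 0.46, −0.29, and −0.43. The late mean was lower than the early mean by 0.97 on the log2 scale (limma adjusted p = 0.00069). The 2 hr call was lost without either array of 0 or 12 hr and without replicate 2 of 2 hr. The other 2 Klf9 probe sets, 1 of them among the dimmest 1 in 3, were called in no comparison, and their correlations with the brightest were −0.45 and −0.41.

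Klf13, a member related to Klf9 that is known from lymphocytes and heart, was not called in any comparison. It read 7.08 and 6.99 at 0 hr, 7.12 and 7.60 at 2 hr, 7.12 and 7.76 at 4 hr, 7.29 and 7.15 at 12 hr, and 6.99 and 7.14 at 24 hr. Replicate 2 was higher than replicate 1 by a wide margin at both early times. The 95% interval of its log2 fold change was −0.16 to 0.81 at 2 hr and −0.08 to 0.89 at 4 hr, so a rise as large as the 0.76 of Klf9 lay within both intervals.

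Klf2, which is known above all from endothelium and lymphocytes and as a gene downstream of the MAP kinase ERK5, could not be given 1 course, because its 5 probe sets disagreed. The brightest read 8.43 and 8.43 at 0 hr, 8.37 and 8.40 at 2 hr, 8.41 and 8.37 at 4 hr, 8.71 and 8.59 at 12 hr, and 8.66 and 8.77 at 24 hr. It was flat early and higher late, with a call at 24 hr (0.28 ± 0.09, limma adjusted p = 0.047) that was lost in 11 of 21 alternative fits. The probe set 1376569_at read 6.11 and 6.11 at 0 hr, 7.27 and 7.48 at 2 hr, 7.35 and 7.36 at 4 hr, 7.32 and 7.52 at 12 hr, and 7.63 and 7.93 at 24 hr. Here all 8 later arrays were more than 1 unit above the 0 hr arrays, and the log2 fold changes, 1.27 at 2 hr and 1.67 at 24 hr (SE 0.12), were called at every time and in every alternative fit. The 4 hr level was 2.37-fold and the 12 hr level 2.48-fold above that at 0 hr.

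Among the other Klf2 probe sets, the dim 1386041_a_at was up-regulated at 2, 4, and 24 hr (0.84, 0.99, and 1.00), and 1394068_x_at and the dim 1386040_at were not called. The 3 calls of 1386041_a_at were each lost without either 0 hr array. The correlation of the 4 with the brightest across the 10 arrays ran from −0.21 to 0.48. The array annotation does not say which probe set best reports the Klf2 transcript, so no single direction is given for the early times. Of the endothelial markers, 7 of 8 were measured, and none was up-regulated at 2, 4, or 24 hr. Kdr was called up at 12 hr (1.21), and 1, 4, 3, and 4 of the 7 were down-regulated at 2, 4, 12, and 24 hr. Of all probe sets, 8.88%, 11.9%, 10%, and 10.9% were down-regulated at these times. The summed log2 level of the 7 markers was 10.70 to 11.03 at 0 hr and 9.97 to 10.10 at 24 hr, while Klf2 at 1376569_at was highest at 24 hr. The defining markers Pecam1 and Tie1 lay among the dimmest 1 in 3 probe sets, and the part of endothelial cells in the Klf2 values was not tested. In such bulk samples, fewer cells of a type and less RNA per cell cannot be told apart.

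**Figure D3:**
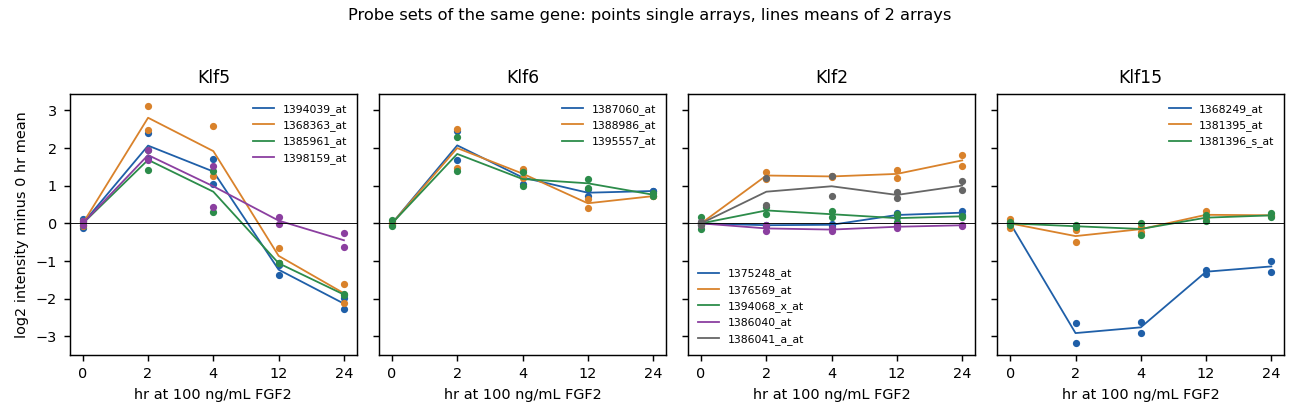
Log2 intensity minus the mean of the 0 hr arrays (vertical axis) against hr at 100 ng/mL FGF2 (horizontal axis, equally spaced) for every probe set of Klf5, Klf6, Klf2 and Klf15. Points are single arrays and lines join means of 2 arrays. All 4 Klf5 and all 3 Klf6 probe sets rise at 2 hr, whereas 1 of 3 probe sets of Klf15 and 2 of 5 of Klf2 stand well away from the others of their gene.

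Klf15, a regulator of glucose, amino acid, and lipid metabolism that glucocorticoids are known to induce, was the 1 member with a down-regulated probe set at the early times. Klf11, which was not a member, was also down-regulated then, at all 3 of its probe sets. The readings that follow are those of Klf15. Its brightest probe set read 7.75 and 7.80 at 0 hr, 4.61 and 5.12 at 2 hr, 4.86 and 5.17 at 4 hr, 6.44 and 6.54 at 12 hr, and 6.79 and 6.48 at 24 hr. No later array reached the 0 hr level, and all late arrays were above all early arrays. The early values lay below 5.44, the mean level under which a probe set was counted among the dimmest 1 in 3. No measure of background was used here, so whether the transcript was still detected at 2 and 4 hr is unknown. If it was not, the true differences from these arrays may be larger than the estimates. It was down-regulated by −2.91 ± 0.18 at 2 hr (an estimate of 7.52-fold lower) and −2.76 at 4 hr (6.76-fold lower), with limma adjusted p of 6.4e-05 and 3.7e-05. The 95% interval at 2 hr was −3.32 to −2.50. At 12 and 24 hr it was still down-regulated, by −1.28 and −1.14 (limma adjusted p = 0.0016 and 0.0028). The late mean was estimated at 3.08-fold higher than the early mean, and between 12 and 24 hr the difference of 0.14 had a 95% interval of −0.27 to 0.55.

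The other 2 Klf15 probe sets were among the dimmest 1 in 3 of the array and read between 4.25 and 5.38 on all arrays. Neither was called against 0 hr at any time, with log2 fold changes from −0.34 to 0.23. Both were higher late than early, by 0.47 ± 0.09 and 0.29 ± 0.08, in the same direction as the brightest. The Klf15 course therefore rests on 1 probe set against 0 hr.

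Measures of RNA also differed between the time points. The log2 ratio of the 5′ to the 3′ control probe sets of Actb, which falls when RNA is shortened or amplified less completely, averaged −1.17 at 0 hr and −1.91, −1.72, −1.36, and −1.81 at the 4 later times in order, so that 24 hr was as low as the early times. The Gapdh ratio, the 5S rRNA control, and the replicate spread did set the early arrays apart. The Gapdh ratio lay between −0.30 and −0.17 at the early times and between −0.14 and 0.00 at the others, and the 5S rRNA control read 183 to 209 against 112 to 154. The spread between the 2 arrays of a time point was also larger early, with an SD of the log2 difference over all probe sets of 0.29 at 2 hr and 0.30 at 4 hr against 0.16 to 0.21 elsewhere. Replicate 2 exceeded replicate 1 at 23 of the 28 Klf probe sets at 2 hr and 21 at 4 hr, where 45.7% and 50.3% of all probe sets did so.

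With the Actb ratio added as a covariate, 9 Klf probe sets were called at 2 hr in place of 19, 8 up and 1 down. The calls that were kept were those of Klf2 (1376569_at), Klf4, 2 probe sets of Klf5, all 3 of Klf6, Klf10, and Klf15. Those of Klf3, Klf7, and Klf9 were lost, with the log2 fold change of the brightest probe set at 0.45, 0.48, and 0.14. Calls that were kept shrank as well, that of Klf5 from 4.18- to 2.38-fold, Klf6 from 2.07 to 1.45 on the log2 scale, and Klf4 from 1.72 to 1.28, while Klf15 went to −3.33. At 4 hr 9 were up and 1 down in place of 14 and 1, and those of Klf7 (0.31), Klf2 1386041_a_at, Klf5 1398159_at, and 2 probe sets of Klf6 were lost. At 12 hr all 8 calls were kept, and Klf5 1368363_at (−1.21) and Klf9 (−0.45) were called down in addition. At 24 hr the 4 down calls were kept and Klf5 1398159_at (−1.26) and Klf9 (−0.97) joined them, whereas the up calls of Klf6 (0.31), Klf7 1380363_at, and 2 probe sets of Klf2 were lost, which left Klf2 1376569_at. All 4 Klf5 probe sets were lower at 24 than at 12 hr with the covariate, by log2 differences of −1.09 to −1.80, and none was called without it. Between the late and early means 5 were higher and 13 lower with the covariate, in place of 4 and 14. Of these, 17 were called both ways, Klf6 1395557_at was lost, and Klf2 1376569_at (0.29) was gained. Of the 18 called without it, 14 were kept in every alternative fit and none was reversed. The part of RNA quality in the Klf values was not tested beyond this. Leaving out 1 of the 0 hr arrays had a similar effect on the count, with 12 calls at 2 hr without replicate 1 and 11 without replicate 2.

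Of 15 other genes of the wider Klf and Sp family, 8 were measured, and 4 of those were among the dimmest 1 in 3. At 2 hr Sp2 rose (1.12 ± 0.10) and Klf11, a repressor induced by transforming growth factor beta, fell (−1.49 ± 0.15). Klf11 read 10.01 and 10.05 at 0 hr, 8.28 and 8.81 at 2 hr, 8.94 and 8.91 at 4 hr, 9.11 and 9.09 at 12 hr, and 9.49 and 9.49 at 24 hr, and it was down-regulated at every time. Its other 2 probe sets were also down-regulated at every time, by 0.56 to 1.65 on the log2 scale. Sp2 was up-regulated at every time, and Klf16 at 4 hr (0.51) and 24 hr (0.46).

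Partners and upstream regulators of the family, 21 of 21 measured, had 4 up and 1 down at 2 hr and 6 up and 1 down at 4 hr. Among the later arrays 2 were up and 3 down (12 hr), then 1 up and 4 down (24 hr). Of all probe sets, 8.61% were up and 8.88% down at 2 hr, and 11.9% each way at 4 hr. At 12 hr the shares were 8.94% and 10%, and at 24 hr 9.29% and 10.9%. The lists take the brightest probe set of each gene, so these shares are not a like background. The early rises included Srf, the transcription factor that binds the CArG box, at 1.16 ± 0.11 at 2 hr and 0.56 at 4 hr, and Smurf1, a ubiquitin ligase, at 1.08 and 1.18. Siah1 and Mapk7, which encodes ERK5, completed the 4 at 2 hr (0.32 and 0.35), and Hdac1 and Elk1 joined them at 4 hr (0.35 and 0.47). The acetyltransferase gene Kat2b was down-regulated at every time, most at 12 hr (−1.71 ± 0.09), and Crebbp and Siah1 at 12 and 24 hr. Mef2c was called down at 24 hr (−0.60), Sin3a and Mapk7 up at 12 hr, and Mef2a up at 24 hr (0.54). The median over the list lay between −0.12 and 0.07 at the 4 times.

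Glucocorticoid response genes, the setting in which Klf9 and Klf15 are best known, did not move as 1 group. Of 14 measured of 15, 5 were up-regulated and 1 down-regulated at 2 hr, 5 and 2 at 4 hr, and 3 and 3 at each late time. The shares over all probe sets are those given for the partners above. The receptor gene Nr3c1 was not called at the early times and was down-regulated at 12 hr (−1.91 ± 0.22) and 24 hr (−1.41). Errfi1, a feedback inhibitor of the EGF receptor, rose by 3.04 at 2 hr, and Cebpd by 2.02 at 4 hr and 2.37 at 12 hr. Pdk4, which limits glucose oxidation, fell, with log2 fold changes of −2.46 at 4 hr and −3.63 at 24 hr. The other early rises were Per1, Dusp1, Nfkbia, and Cebpd (0.75) at 2 hr and Fkbp5, Dusp1, Nfkbia, and Errfi1 (0.62) at 4 hr. Ddit4 fell at 2 hr and Tsc22d3 at 4 hr. At 12 hr Nfkbia and Errfi1 (0.52) were also up and Tsc22d3 and Pdk4 (−2.63) down. At 24 hr Per1, Nfkbia, and Cebpd (1.36) were up and Tsc22d3 down.

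Genes described in other systems as Klf targets, 23 of 25 measured, showed 6 up and 1 down at 2 hr, 9 and 2 at 4 hr, 4 and 4 at 12 hr, and 2 and 3 at 24 hr. The shares over all probe sets are again those given for the partners. Hmox1 had log2 fold changes of 1.94 ± 0.19, 2.17, and 1.34 at the first 3 times, all called, and of −0.11 at 24 hr. Tgfb1 rose at every time, most at 24 hr (1.74 ± 0.13). Krt19 was called at the early times with widely spaced arrays (7.35 and 8.96 at 2 hr), and S1pr1, known as an endothelial and lymphocyte Klf2 target, only at 12 hr (1.74). The cell-cycle genes on the list went separate ways, with Ccnd1 down at 2 and 4 hr (−0.82 and −1.07), Ccnb1 up at both (0.97 and 1.00), and Cdkn1a up at 12 and 24 hr (0.96 and 1.21). The other calls at 12 hr were of Cdkn1c, Tgfbr1, Prodh, and Cdh1, all down, and at 24 hr Tagln, Tgfbr1, and Cdh1 were down.

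The probe sets whose 10 array values ran most like those of the 3 members with the largest moderated F were found among 20798 others with a gene symbol. For Klf15 they were those of Hbs1l (Pearson's r = 0.98), Atf7ip (0.98), and St13 (0.98). For Klf5 they were Sema6a, Gyg1, and Atxn1l (0.99 each), of which Sema6a rose at 2 hr (0.78) and fell at 24 hr (−0.83). For Klf2 at 1376569_at they were Nifk (0.97), the activin antagonist gene Fst (0.97), and Lrrc8c (0.96). Fst was up-regulated at every time, by 3.26, 2.87, 3.40, and 4.31. The arrays share time points, so high values are common to genes with like courses, and they are given as descriptions.

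The labelled tissue was checked against its markers. The shares called over all probe sets at each time are those given for the partners above. All 7 lens epithelial markers were measured, none in the dimmest 1 in 3, and 5 of them (Pax6, Foxe3, Cdh1, Gja1, and Aqp1) were down-regulated at 24 hr, when Klf5 was at its lowest. Of 10 lens fiber markers, Bfsp1 was down-regulated at 2 hr, 4 (Mip, Bfsp1, Bfsp2, and Gja3) at 4 hr, and 5 (the same 4 and Crygs) at 12 hr, and Dnase2b was up-regulated at 2 and 4 hr. At 24 hr limma called 0 of them, with 4 at an unadjusted p under 0.05. Of 4 surface epithelial markers, Krt12 was up-regulated at every time, by 2.8, 3.7, 5.3, and 4.8 in order. It was highest at the late times, when Klf4 was not called and the brightest Klf5 probe set was below its 0 hr level. Krt15 was up-regulated at 2 and 4 hr (3.57 ± 0.76 and 3.28 ± 0.76), the times at which Klf4 and Klf5 were also up. Its arrays were widely spaced there (8.92 and 10.38 at 2 hr, 7.96 and 10.74 at 4 hr). Krt5 was among the dimmest 1 in 3 probe sets and Krt14 was not called. The log2 of the summed intensity of the 4 was 7.33 to 7.57 at 0 hr and 9.90 to 11.09 at the early times. It was 10.57 to 10.72 at 12 hr, where Krt12 alone read 10.61 and 10.43, and 9.77 to 10.63 at 24 hr. The part of such cells in the Klf values was not tested. Markers of leukocytes, erythroid cells, pigmented cells, and retina gave 0 calls by limma against 0 hr among the 19 measured, of which 11 were dim, and 0 calls after quantile normalization. At an unadjusted p under 0.05, 6 of the 19 were called at some time.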

How the data were processed

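Total RNA of lens explants was amplified, labelled with biotin, and hybridized to Affymetrix rat arrays, 2 per time point. The deposited values are intensities per probe set, which the authors normalized by the robust multichip average (RMA, version not given in the sources used here) on a linear scale. Their log2 was used without another normalization, and 57 array controls were left out, so 31042 probe sets were tested. Of these, 20826 had 1 gene symbol in the array annotation, 436 several, and 9780 none.

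Groups came from the sample labels. The model (limma 3.58.1, R 4.3.3) had 1 mean per time point over 10 arrays and 5 residual degrees of freedom, with an empirical Bayes variance prior of 3.69 degrees of freedom and SD 0.116. Calls needed a Benjamini-Hochberg adjusted p under 0.05 over all probe sets, and the code was tested on simulated data. The differences from 0 hr share the same 2 arrays at 0 hr. The number of arrays limits the precision. Equal replicate numbers were checked for pairing by correlating replicate differences between time points. Only 2 and 4 hr were correlated above the limit of 0.1 (r = 0.33, others −0.15 to 0.00). No pairing was fitted in the main model, so the 2 and 4 hr arrays were treated as independent although they may share a replicate shift. The SE of differences that involve both times does not allow for such a shift.

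All probe sets of the 10 members are reported. From each list of other genes, taken at its brightest probe set, at most 4 called genes with the largest change were named, plus those that a count of 5 or fewer singles out, and further genes were named after their values were seen. The members and lists were chosen with earlier results of these data known. Array names in the study's supplement appear to put the 0 hr arrays, the 2 and 4 hr arrays, and the 12 and 24 hr arrays in separate runs. The sample labels name no run, so no run term was fitted, and such runs cannot be told apart from time except within those pairs of times. Plots used matplotlib 3.10.9 under Python 3.11.15. Alternatives were p without adjustment, a fold change minimum of 1.25, fitting only the time points compared, a trended robust prior, quantile normalization, omission of the dimmest 1 in 3 probe sets, median centring, array quality weights, a replicate block, the Actb ratio as a covariate, 1 probe set per gene, a fit without the 2 and 4 hr arrays, analysis of variance, and leaving out each array.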

Additional observations from a re-analysis of the deposited data

Results flagged for a closer look

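The mean of the late times (12 and 24 hr) differed from that of the early times (2 and 4 hr) at 18 Klf probe sets by limma. It was lower at all 4 Klf5 probe sets, by log2 differences of −3.40 (1394039_at), −3.72 (1368363_at), −2.74 (1385961_at), and −1.58 (1398159_at). It was lower at all 3 of Klf3 (−0.97, −0.83, and −0.96) and all 3 of Klf6 (−0.81, −1.03, and −0.60), and at Klf4 (−1.31), Klf10 (−0.67), Klf9 at 1370209_at (−0.97), and Klf7 at 1377618_at (−0.54). It was higher at the 3 probe sets of Klf15 (1.62, 0.47, and 0.29) and at Klf2 1375248_at (0.30). The single step between neighboring times that was called was that of Klf4 from 2 to 4 hr (−0.77). Each of these is a tested contrast of the same fit, and they share arrays with one another. Of the 18, 14 were kept in every alternative fit. Klf2 1375248_at was lost with a fold change minimum, and Klf6 1395557_at, Klf7 1377618_at, and Klf15 1381396_s_at were lost in 6, 8, and 5 fits, most of which left out 1 array.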

How the results depend on the processing

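Of 51 calls of a Klf probe set at a time against 0 hr, 23 were kept in every alternative, 28 were lost in some, and 0 changed direction. With 1 probe set per gene (10 in place of 28), 8, 7, 4, and 4 were called at 2, 4, 12, and 24 hr and 9 between late and early, where fewer probe sets were counted. The Actb covariate gave 9 at 2 hr (in place of 19), 10 at 4 hr (15), 10 at 12 hr (8), 7 at 24 hr (9, with 1 up and 6 down in place of 5 and 4), and 4 for each of the steps from 2 to 4 hr and from 12 to 24 hr. Fitting the groups of the contrast alone gave 13 at 12 hr and 0 and 3 for these steps, and array weights gave 14 at 24 hr and 0 and 2 for the steps. Without the 2 and 4 hr arrays 13 were called at 12 hr, 15 at 24 hr, and 3 between them. Without adjustment the steps gave 10 and 4. By analysis of variance with adjusted P 13 differed over time, in place of 20. The cause of these changes was not tested. Leaving out 1 array gave 11 to 19 calls at 2 hr, 9 to 18 at 4 hr (9 without 0 hr replicate 2), 2 to 10 at 12 hr (2 without 0 hr replicate 1 or 12 hr replicate 1, 3 without either replicate 2), 5 to 12 at 24 hr (5 without either 0 hr array), 0 to 7 for the first step (7 without 4 hr replicate 2, 4 without 2 hr replicate 1), 0 to 1 for the second (1 without either 4 hr array), and 15 to 19 between late and early. A time point left with 1 array is assumed to vary like the others. With a replicate block the counts were 19, 15, 8, and 8 at 2, 4, 12, and 24 hr, 1 and 0 between neighboring times, and 19 between late and early, and of the calls against 0 hr it ended only that of Klf2 1375248_at at 24 hr.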
